A study of Arabidopsis thaliana with 4 samples.

Results

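The histone genes of Arabidopsis were followed in the inflorescence transcriptome of plants that lack normal expression of NODULIN HOMEOBOX (NDX), a plant-specific homeodomain protein. They are 45 genes that code for the core histones H2A, H2B, H3 and H4, for their variants and for the linker histone H1. They were taken by AGI locus identifier as members of the histone families, a rule that uses no measured value, although the families were singled out with earlier results of these data known. Of the 45, 27 were among the 13311 genes listed in the deposited gene tables.

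Total RNA was taken from inflorescences of 5-week-old plants of the wild-type accession Col-0 and of the T-DNA insertion allele ndx1-4 in the same background, grown side by side under long days. mRNA libraries were sequenced from 2 pools per genotype, each pool made of 5 inflorescences of different plants. Both genotypes were untreated, and the mutant was represented by 1 insertion allele. The deposited gene tables hold only genes that passed an adjusted p of 0.01 in the study's own comparison, between genotypes in flowers (the genotype table) or between flowers and seedlings of 1 genotype (the tissue tables). The seedling libraries were not used here.

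Histones package DNA into nucleosomes, in which H2A, H2B, H3 and H4 form the core and H1 binds the linker DNA. Most core histone transcripts are made in S phase, when new DNA has to be packaged, so tissues with many dividing cells tend to be rich in them. Variants such as H3.3, H2A.Z, H2A.W and centromeric H3 (CENH3) mark particular chromatin or particular cell types, and many are made outside S phase. In plants, histone genes that are active in dividing cells often carry a conserved octamer, CGCGGATC, close upstream of the transcription start, and a hexamer, ACGTCA, is another element named in their promoters.

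The clearest genotype differences among the histone genes had opposite signs in core histone genes and in the linker histone gene H1.3. HTR1 and HTR2, 2 genes for the replication-coupled H3.1, the replicative H2A genes HTA10 and HTA13 and the H2A.W gene HTA6 had lower levels in both ndx1-4 libraries than in either Col-0 library. Their estimates lay between -0.68 and -0.50 on the log2 scale. H1.3, a linker histone known to be induced by drought and low light, was 4.01-fold higher. With genotype as the only term and library scaling recovered from the tables, none of the 6 passed an adjusted p of 0.01 by edgeR. By DESeq2 with its own scaling all 6 did, among 401 of 8163 genes (4.91%), in the fit that includes the genes of the genotype table. In that fit edgeR with the replicate number as a further term called HTR2, HTA10, HTA13, HTA6 and H1.3, among 501 of 8163 genes. With scaling to total counts it called H1.3, among 36 of the 8163. In the fit without those genes, H1.3 was also called, by DESeq2 among 199 of 7981 genes and with the replicate term among 281. The 5 lower genes have values in all 4 libraries only because the study's own genotype test had listed them. The upstream sequences of these 6 genes are shown because these 5 genes carry the octamer and H1.3 does not. The motifs were chosen with earlier results of these data known, and 3 other histone genes with a lower level in both ndx1-4 libraries, HTA2, HTB2 and HTB11, do not carry the octamer. Each is the 250 bases before the annotated gene start in TAIR10.1 (RefSeq), read on the strand of the gene, with the octamer in capitals on either strand. The regions are chr1:2972335-2972584 (minus strand) for HTR2, chr5:26120582-26120831 (minus) for HTR1, chr1:18926561-18926810 (plus) for HTA10, chr3:7229140-7229389 (plus) for HTA13, chr5:24116221-24116470 (minus) for HTA6 and chr2:7845673-7845922 (plus) for H1.3.
HTR2: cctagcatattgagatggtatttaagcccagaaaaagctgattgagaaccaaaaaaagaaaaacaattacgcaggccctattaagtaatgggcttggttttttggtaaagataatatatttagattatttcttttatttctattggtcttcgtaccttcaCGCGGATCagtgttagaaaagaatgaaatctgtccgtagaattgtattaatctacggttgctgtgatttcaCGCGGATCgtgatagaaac
HTR1: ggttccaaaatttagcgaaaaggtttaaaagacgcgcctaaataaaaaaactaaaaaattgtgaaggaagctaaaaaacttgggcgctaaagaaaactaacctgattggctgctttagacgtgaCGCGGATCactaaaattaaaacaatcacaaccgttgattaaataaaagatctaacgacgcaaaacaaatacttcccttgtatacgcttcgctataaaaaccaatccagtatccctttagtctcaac
HTA10: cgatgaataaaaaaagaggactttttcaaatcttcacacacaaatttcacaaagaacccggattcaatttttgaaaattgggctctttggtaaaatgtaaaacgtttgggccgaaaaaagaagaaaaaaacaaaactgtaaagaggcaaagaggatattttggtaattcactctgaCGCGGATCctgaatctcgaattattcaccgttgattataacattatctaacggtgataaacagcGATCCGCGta
HTA13: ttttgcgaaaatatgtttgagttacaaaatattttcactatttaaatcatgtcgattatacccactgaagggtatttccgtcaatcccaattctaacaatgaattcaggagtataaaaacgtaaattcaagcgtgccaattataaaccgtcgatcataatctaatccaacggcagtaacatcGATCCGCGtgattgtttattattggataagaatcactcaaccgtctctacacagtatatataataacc
HTA6: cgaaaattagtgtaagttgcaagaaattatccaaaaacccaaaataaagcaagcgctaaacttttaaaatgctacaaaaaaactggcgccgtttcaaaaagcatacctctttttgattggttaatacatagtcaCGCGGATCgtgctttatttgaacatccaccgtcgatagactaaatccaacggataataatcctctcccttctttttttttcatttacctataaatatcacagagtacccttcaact
H1.3: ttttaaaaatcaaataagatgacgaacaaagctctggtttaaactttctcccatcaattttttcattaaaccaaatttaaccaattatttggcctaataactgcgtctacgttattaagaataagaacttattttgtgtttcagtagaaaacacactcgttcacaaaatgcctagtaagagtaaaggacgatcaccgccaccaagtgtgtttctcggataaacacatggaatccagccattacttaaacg

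HTR2 carried 2 copies, beginning 90 and 19 bases before the gene start, and HTA10 also carried 2, at 74 and 10 bases, the second of them on the opposite strand. The single copies of HTR1, HTA13 and HTA6 began 126, 68 and 116 bases before the start. The copy of HTA13 was on the opposite strand too.

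NDX itself was measured first as a check of the labels. Its estimated counts were 430 and 525 in Col-0 against 73 and 108 in ndx1-4, a mean FPKM (fragments per kilobase of transcript, scaled to library size) 6.26 times higher in Col-0. Reads of the gene remained in the mutant, and where they lie relative to the insertion was not examined. Summed over listed genes only, the libraries held between 10726926 and 13814929 estimated counts, and their relative size as recovered from the tables ranged from 1 to 1.31. The 2 libraries of a genotype differed by a median factor of 1.06 over the histone genes, in Col-0 and in ndx1-4. All 5 floral organ genes (AG, AP3, PI, SEP3 and AP1) were expressed in every library, with summed levels of 427 and 455 FPKM in Col-0 against 467 and 469 in ndx1-4. The sums hide differences of both signs. AP1 and PI were higher in both ndx1-4 libraries, with log2 fold changes of 0.42 and 0.27. AG and SEP3 were lower in both, at -0.23 and -0.11, and AP3 overlapped. By edgeR, 0 of the 5 passed an adjusted p of 0.01.

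Which histone genes were listed already differed by class. Of the 45, 24 (53.3%) were present in the Col-0 tissue table, against 39.6% of all 27444 protein-coding nuclear genes. For ndx1-4 the tissue table held 14 (31.1%), against 39.1% of all. The genotype table held 6 of the 45 (13.3%), against 1.45% of all. All 5 H3.1 genes were in the Col-0 tissue table and 0 of the 5 were in that of ndx1-4. Of the 27 histone genes listed in any table, 13 were in the Col-0 tissue table and not in that of ndx1-4. There were 3 the other way round. Over all 13311 genes listed in any table these counts were 2212 and 2089. Being listed for 1 genotype is not a test of a difference between genotypes, since a gene near the threshold can pass in 1 table and miss it in the other.

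Counts in all 4 flower libraries were thus at hand for 16 histone genes, in Col-0 alone for 9 and in ndx1-4 alone for 2. The other 18 were in no table and have no value here. They were the H3.3 genes HTR4 and HTR8, 6 of the 8 H4 genes (AT1G07660, AT2G28740, AT3G45930, AT3G46320, AT3G53730 and AT5G59970), the replicative H2A gene HTA1, both H2A.X genes (HTA3 and HTA5, variants that are phosphorylated at DNA breaks), the H2A.Z gene HTA8, the H2A.W gene HTA7 and the H2B genes HTB1, HTB6, HTB7, HTB8 and HTB9.

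In Col-0 flowers the histone genes with a value were mostly strongly expressed, and the levels of the others are unknown. The 25 genes with a Col-0 value had a median of 120.1 FPKM, against 15.2 over the 11266 genes with one, and 22 of the 25 lay above that median. The highest was HTR5, a gene for the replacement H3.3 that is put into chromatin outside replication, with 718 and 672 FPKM. It stood higher than 98.5% of listed genes. HTA9, one of the genes for H2A.Z, a variant placed at gene starts, followed with 528 and 460 FPKM. The H2B gene HTB2 had 276 and 264 FPKM, the H4 gene AT5G59690 had 247 and 234, and the H2B gene HTB4 had 233 and 220. The libraries of HTR5, HTA9 and HTB2 did not overlap, while the lower library of AT5G59690 and the higher library of HTB4 were nearly equal.

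**Figure D1:**
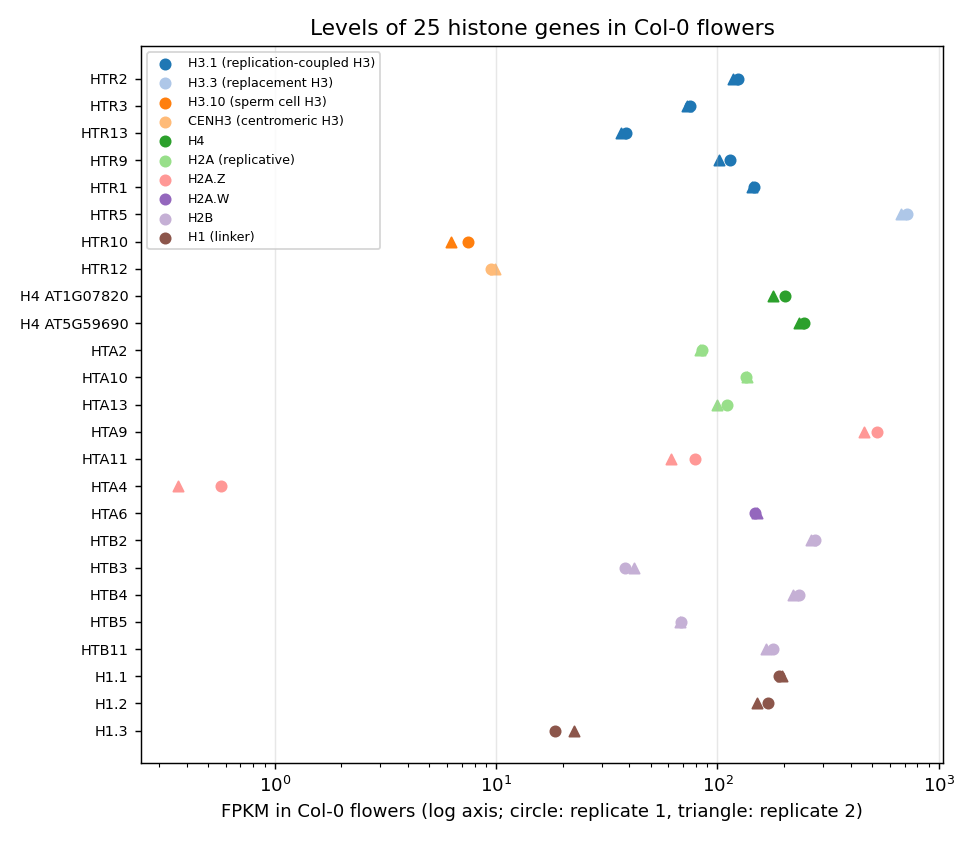
FPKM of 25 histone genes in the 2 Col-0 flower libraries (log axis, circle for replicate 1 and triangle for replicate 2), coloured by histone class. HTR5 and HTA9 stand at the right, and HTA4, with 0.573 and 0.364 FPKM, at the left.

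The 5 H3.1 genes, which code for the H3 deposited behind the replication fork, spanned a 3.86-fold range in Col-0. HTR1 was highest with 147 and 144 FPKM and HTR2 followed with 123 and 117. HTR9 had 114 and 102 FPKM, HTR3 had 75.01 and 72.8, and HTR13 had 38.4 and 36.7. The ranges of neighbouring genes in this order did not overlap. HTR9 and HTR13 are neighbours on chromosome 5, 577 bases apart, and differed by a factor of 2.86 in mean level. HTR3 shares 33.5% of its 75-base stretches, the length of a read, with the neighbouring gene AT3G27380, so its level is less certain.

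Summed by class, H2B took the largest share of the histone FPKM measured in Col-0 (20.4%, 5 of 11 genes measured), followed by H3.3 (18.2%, 1 of 3 genes), H2A.Z (14.8%, 3 of 4), H3.1 (12.7%, 5 of 5) and H4 (11.3%, 2 of 8). H1 made up 9.79%, replicative H2A 8.50% and H2A.W 3.93%. Classes with unlisted genes are understated by an unknown amount. Among the H2B genes HTB11 had 178 and 166 FPKM, HTB5 had 68.6 and 67.5 and HTB3 had 38.3 and 42.0. Among the H2A.Z genes HTA11 had 79.2 and 61.8 FPKM.

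The genes for the sperm cell H3 and for centromeric H3 were low. HTR10 codes for the H3 of sperm cells and had 7.43 and 6.25 FPKM in Col-0 against 9.40 and 5.10 in ndx1-4. The ndx1-4 libraries lay on either side of both Col-0 libraries, so the genotypes overlapped. HTR12, which codes for CENH3, had 9.49 and 9.89 FPKM in Col-0 and was not listed for ndx1-4. Of the 7 sperm cell markers, GEX1 and DAZ3 were measured, and their summed level was also highest in ndx1-4 replicate 1, with 19.9 FPKM against 12.7 in replicate 2 and 16.2 and 11.7 in Col-0. The sum over 5 pollen vegetative cell markers was 630 and 566 FPKM in Col-0 against 914 and 699 in ndx1-4. Most of this sum came from VGD1 and the LAT52-like gene, whose genotypes did not overlap, while those of VEX1, ACT4 and ACT12 did. VEX1 was at -0.68 ± 0.49 on the log2 scale, opposite in sign to the other 4. The part of pollen content in the HTR10 values was not tested.

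The genotype comparison asked which transcripts differ when NDX is reduced. Of the 16 histone genes with all 4 libraries, 11 were in both tissue tables and were not picked by the genotype contrast. To be in both, a gene had to differ between flowers and seedlings in each genotype, so a changed flower level could remove it. The 13 histone genes in the Col-0 tissue table but not in that of ndx1-4 are not among these 11. Of these 11, 3 were higher in both ndx1-4 libraries than in either Col-0 library (H1.3, HTA4 and HTB3) and 3 were lower (HTA2, HTB2 and HTB11), against 26.1% and 24.5% of the 8961 genes of this kind. These shares are close to the background. The other 5 genes, HTR1, HTR2, HTA10, HTA13 and HTA6, had values only because the study's genotype test listed them. They had to differ, and with them 8 of 16 were lower and 3 of 16 higher, against 24.6% and 27.0% of 9143 genes.

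**Figure D2:**
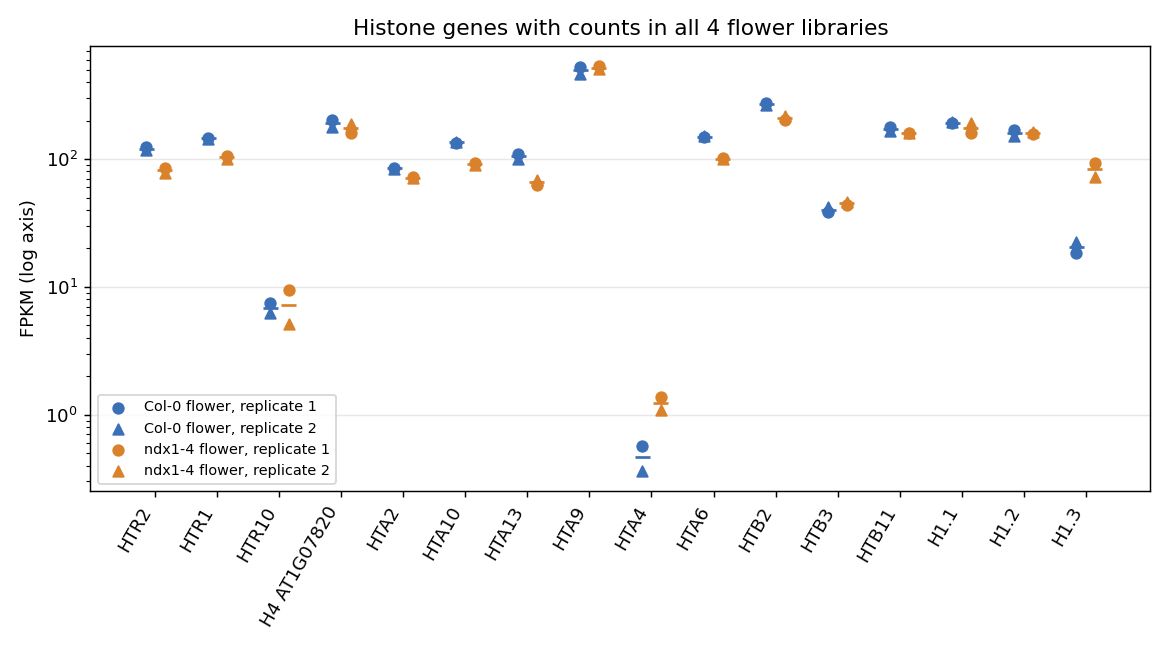
FPKM of the 16 histone genes with counts in all 4 flower libraries (log axis, Col-0 blue and ndx1-4 orange, circle for replicate 1 and triangle for replicate 2, bar for the mean of 2). H1.3 is the gene whose genotypes are farthest apart among the well expressed genes, and HTA9, H1.1 and H1.2 overlap.

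Of the 7981 genes in both tissue tables that passed a filter on low counts (mean of 10 or more), the quasi-likelihood test of edgeR called 7 at an adjusted p below 0.01 (0.0877%), and 0 of the 10 histone genes tested. At an unadjusted p below 0.05 there were 3 histone genes, 1 higher and 2 lower, against 10.6% higher and 8.7% lower over all genes, and DESeq2 called 1 histone gene (H1.3) among 199 genes at an adjusted p below 0.01 (2.49%). The median log2 fold change of the 10 was -0.055, against 0.0128 over all genes.

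H1.3 (AT2G18050, chromosome 2, positions 7845923 to 7847031, 2 or 3 exons) had the largest difference. It is one of 3 Arabidopsis genes for the linker histone and is known as a stress-inducible form, in contrast to the main forms H1.1 and H1.2. Its level was 18.5 and 22.4 FPKM in Col-0 (156 and 222 counts) against 93.6 and 72.5 FPKM in ndx1-4 (858 and 789 counts). Both mutant libraries were more than 3 times above either wild-type library. The log2 fold change was 2.00 ± 0.17 (SE, 2 libraries per genotype), with an edgeR adjusted p of 0.0353 and a DESeq2 adjusted p of 2.78e-15. Leaving out any 1 library kept the log2 fold change between 1.82 and 2.17 and gave edgeR adjusted p values from 0.107 to 0.204. Of the 30 genes below an edgeR adjusted p of 0.05 (0.376%, of which 0.288% higher in ndx1-4), 1 was thus a histone gene.

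The main linker histones were measured in the same fit. H1.1 had 190 and 195 FPKM in Col-0 against 161 and 192 in ndx1-4, and a fitted log2 fold change of -0.13 ± 0.10 and an edgeR adjusted p of 0.503. H1.2 had 169 and 152 FPKM in Col-0 against 158 and 162 in ndx1-4, and a fitted log2 fold change of -0.01 ± 0.09 and an edgeR adjusted p of 0.968. The genotypes overlapped for both. H1.3 made up a small part of the H1 signal in Col-0, where the summed H1 level was 378 and 369 FPKM. The sum in ndx1-4 was 413 and 426 FPKM. Summed as counts scaled for library size, which are not per length, the genotypes overlapped (6689 and 6439 in Col-0, 6598 and 6981 in ndx1-4).

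The 5 genes of the genotype table with lower levels are given next, with statistics from a fit of the genes of both tissue tables together with those of the genotype table (8163 genes). Because the extra genes were chosen on this contrast, their adjusted p is a description and not independent support. In this fit 22 genes had an edgeR adjusted p below 0.01 (0.27%) and 0 of 15 histone genes did. At 0.05 there were 229 genes (2.81%), 5 of them histone genes. Of these, 73 were lower (0.894%), 4 of them histone genes, and 156 higher (1.91%), H1.3 among them. At an unadjusted p below 0.05, 7 histone genes were lower, against 9.14% of all genes, and 1 was higher, against 11.9%. DESeq2 called 401 genes at 0.01 (4.91%), among them H1.3 and these 5 genes.

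HTR2 (AT1G09200, chromosome 1, 2971571 to 2972334, TAIR10 as in the tables), an intronless H3.1 gene, had 123 and 117 FPKM in Col-0 against 85.4 and 77.8 in ndx1-4. Its log2 fold change was -0.56 ± 0.09 with an edgeR adjusted p of 0.0503. HTR1 (AT5G65360, chromosome 5, 26119859 to 26120581, 1 exon), the H3.1 gene with the highest level, had 147 and 144 FPKM in Col-0 against 106 and 101 in ndx1-4. Its log2 fold change was -0.50 ± 0.08 with an adjusted p of 0.0473 by the same test. For both genes the wild-type libraries differed by far less than the genotypes. The other 3 H3.1 genes had no ndx1-4 value, so it cannot be said whether the whole class was lower.

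HTA10 (AT1G51060, chromosome 1, 18926811 to 18927746, 2 exons), a replicative H2A gene, had 134 and 135 FPKM in Col-0 against 93.9 and 89.5 in ndx1-4. Its log2 fold change was -0.57 ± 0.07 with an edgeR adjusted p of 0.0402. HTA13 (AT3G20670, chromosome 3, 7229390 to 7230146, 2 exons), the replicative H2A gene with which HTA10 shares read-length stretches, had 110 and 99.9 FPKM in Col-0 against 62.4 and 68.7 in ndx1-4. Its log2 fold change was -0.68 ± 0.10, the lowest of the histone genes measured, with an edgeR adjusted p of 0.0432. HTA10 shared 1.7% of its 75-base stretches with HTA13, and HTA13 shared 2.2% with HTA10. How reads of these stretches were split was not tested.

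HTA2 (AT4G27230), another replicative H2A gene, was measured without help of the genotype table. It had 85.1 and 83.6 FPKM in Col-0 against 72.1 and 70.4 in ndx1-4, a log2 fold change of -0.25 ± 0.08 with an edgeR adjusted p of 0.207. HTA6 (AT5G59870, chromosome 5, 24115354 to 24116220, 2 exons) codes for H2A.W, the variant found in heterochromatin. It had 148 and 151 FPKM in Col-0 against 101 and 100.2 in ndx1-4, and its log2 fold change was -0.58 ± 0.07 with an edgeR adjusted p of 0.0375. Another H2A.W gene, HTA12, had 18.3 and 17.8 FPKM in ndx1-4 and no Col-0 value.

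Read over the alternatives tried, the edgeR and DESeq2 adjusted p ran from 0.00256 to 0.194 for HTR2, from 0.00433 to 0.198 for HTR1, from 0.000849 to 0.181 for HTA10, from 0.00148 to 0.207 for HTA13 and from 0.000314 to 0.180 for HTA6. The highest of these came from fits that left out 1 library. All 5 kept a negative log2 fold change in every one, under all scalings of the libraries too. The study's genotype test on these same libraries had listed them, so neither the kept sign nor the DESeq2 values are independent support.

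**Figure D3:**
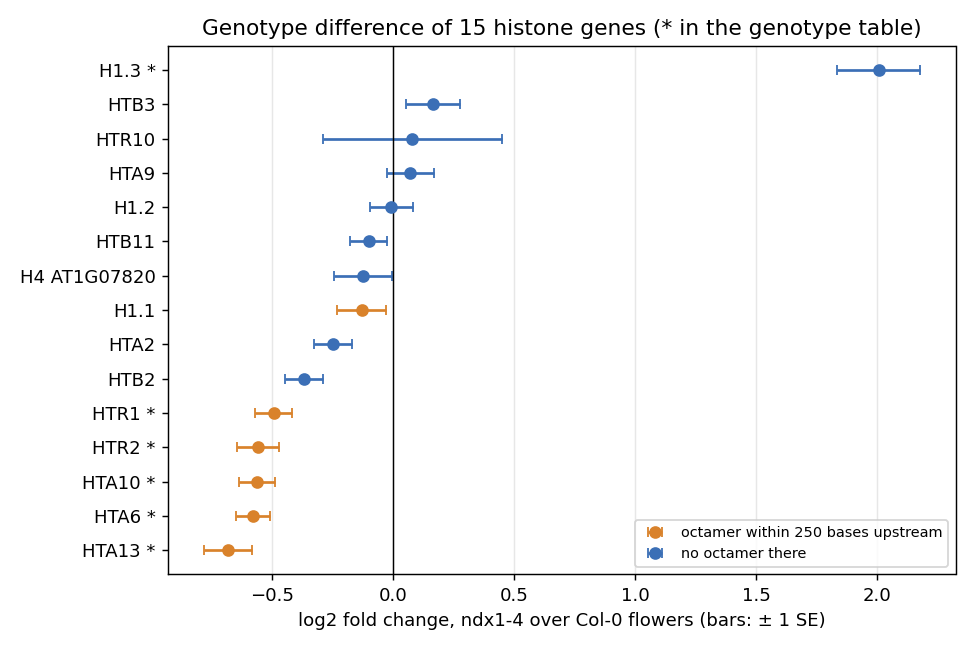
Log2 fold change of ndx1-4 over Col-0 flowers for 15 histone genes (points, with bars of 1 SE, 2 libraries per genotype), in orange for genes with the octamer within 250 bases upstream and in blue for the others. The 5 lowest, HTA13 to HTR1, are all starred as members of the genotype table and lie between -0.68 and -0.50.

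H2B was intermediate. HTB2, its gene with the highest level, had 276 and 264 FPKM in Col-0 against 203 and 216 in ndx1-4, a log2 fold change of -0.37 ± 0.08 with an unadjusted p of 0.00488 and an adjusted p of 0.125 by edgeR. HTB11 had 178 and 166 FPKM in Col-0 against 159 and 161 in ndx1-4, a log2 fold change of -0.10 ± 0.08 with an edgeR adjusted p of 0.50. HTB3 had 38.3 and 42.0 FPKM in Col-0 against 43.9 and 46.3 in ndx1-4, a log2 fold change of 0.16 ± 0.11 with an edgeR adjusted p of 0.448. None of the 3 passed the test, although for each of them both ndx1-4 libraries lay on the same side of both Col-0 libraries. HTB10, with 9.47 and 4.53 FPKM in ndx1-4, lies wholly inside HTA12 on the opposite strand, and as the counts may ignore strand its reads cannot be told from those of HTA12.

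The H4 gene AT1G07820 had 202 and 178 FPKM in Col-0 against 161 and 189 in ndx1-4, and the genotypes overlapped. Its log2 fold change was -0.13 ± 0.12 with an edgeR adjusted p of 0.59. It shares 11.6% of its 75-base stretches with the H4 gene AT1G07660, which was in no table. HTA9 had 528 and 460 FPKM in Col-0 against 533 and 506 in ndx1-4, a log2 fold change of 0.07 ± 0.10 with an edgeR adjusted p of 0.716. HTR10 was at 0.08 ± 0.37, with the widest error of the 15.

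HTA4, an H2A.Z-type gene, was near the limit of detection. Col-0 libraries held 1 and 3 counts, ndx1-4 libraries 6 and 10, below the mean of 10 counts needed for the test. The ratio of the summed counts, scaled for library size, was 3.63, with an exact 95% interval of 1.17 to 14.9 that covers counting error only.

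By class, the counts of the 16 genes summed and scaled to the size of Col-0 replicate 1 were lower in ndx1-4 for H3.1 (2255 and 2194 in Col-0, 1606 and 1484 in ndx1-4), for replicative H2A (2557 and 2474 against 1784 and 1772), for H2A.W (1211 and 1235 against 822 and 814) and for H2B (4360 and 4168 against 3543 and 3721). H1 overlapped, with 6689 and 6439 in Col-0 against 6598 and 6981 in ndx1-4, although its summed FPKM did not. H2A.Z overlapped as well, with 5166 and 4520 against 5230 and 4951. The H3.1 and H2A.W sums and much of the H2A sum rest on genes of the genotype table, and the sums of other classes on few genes. Within the H2B sum, HTB2 had 2650 and 2527 in Col-0 against 1941 and 2067 in ndx1-4, while HTB3 was higher in ndx1-4.

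Genes that act with histones were compared in the same fit. Of 19 histone chaperones and exchange factors, 7 were tested. Of these, 0 were called at an edgeR adjusted p below 0.01, against 0.0877% of all genes. SPT16, a subunit of the FACT chaperone, was at 0.26 ± 0.08 and NRP2, an H2A-H2B chaperone of the NAP1 family, at -0.23 ± 0.08. Both had an unadjusted p below 0.05 by edgeR, against 10.6% higher and 8.7% lower over all genes. The median of the 7 was 0.118, against 0.0128 over all genes. Of 19 DNA replication genes 1 had counts in all libraries, the ribonucleotide reductase gene RNR2A, at 0.03 ± 0.09. Of these 19, 8 were in the Col-0 tissue table and 2 in the ndx1-4 tissue table, against 39.6% and 39.1% of all protein-coding nuclear genes. The mitotic kinase gene CDKB2;1, 1 of 6 mitotic markers with all libraries, had 38.5 and 36.4 FPKM in Col-0 against 32.1 and 34.5 in ndx1-4, at -0.17 ± 0.09, with an edgeR adjusted p of 0.341. Of the 6 mitotic markers, 5 were in the Col-0 tissue table and 1 in that of ndx1-4, against the same shares of all genes. For both lists, being listed for 1 genotype is not a test of a difference between genotypes. The 3 leaf markers had a median of -0.44, and their summed level was 8335 and 7677 FPKM in Col-0 against 6587 and 5899 in ndx1-4. In bulk tissue, fewer cells of a type and less RNA per cell cannot be told apart, and the part of cell composition in the histone values was not tested.

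The upstream motifs were then counted for all 45 genes, as exact matches on either strand in the 250 bases before the annotated start. The octamer CGCGGATC was upstream of 10 of the 45 (22.2%) and of 37 of all 27443 protein-coding genes (0.135%). The 10 were HTR1, HTR2, HTR9, HTR5, the H4 genes AT1G07660 and AT5G59690, HTA10, HTA13, HTA6 and H1.1. Thus 3 of 5 H3.1 genes, 2 of 8 H4 genes, 2 of 4 replicative H2A genes and 0 of 11 H2B genes carried it. HTR5, which codes for a variant made outside S phase, carried it 17 bases before its start.

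The hexamer ACGTCA was upstream of 12 of the 45 (26.7%) and of 7.69% of all genes. It was upstream of 8 of 11 H2B genes, where the octamer was in none, of 2 of 5 H3.1 genes, and of HTR8 and HTR10 with 2 copies each. HTR9 alone had both. TTTCCCGC, the only form of the E2F site searched, was upstream of 0 of the 45 and of 0.619% of all genes. Other forms of that site were not counted. No 2 matches of these motifs overlapped.

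**Figure D4:**
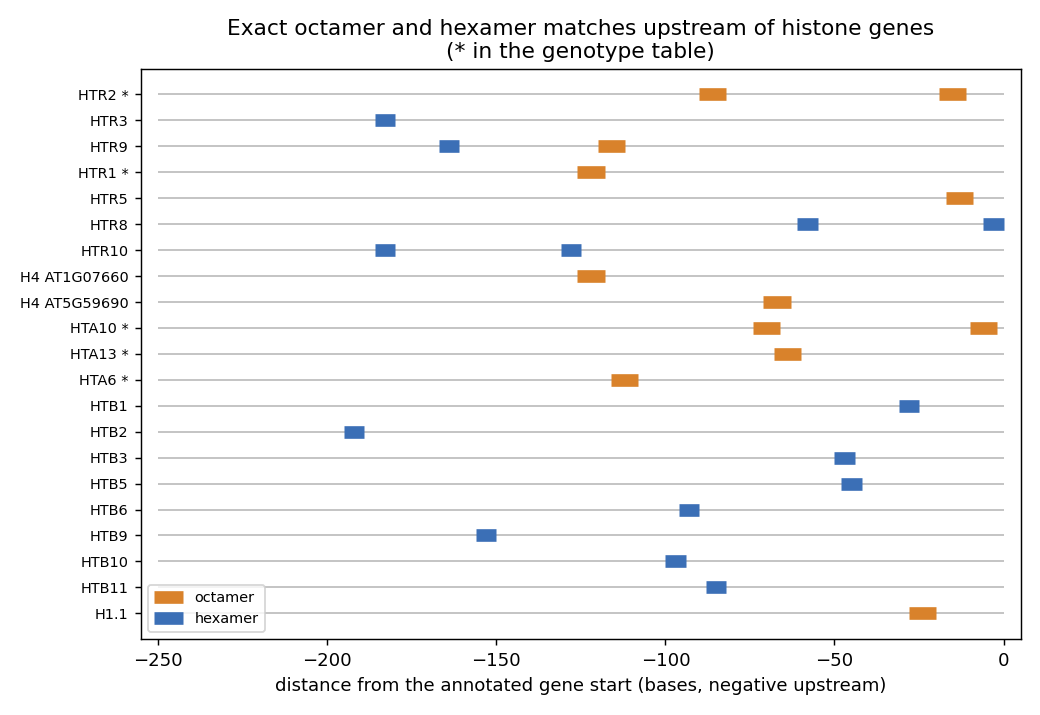
Position of exact octamer (orange) and hexamer (blue) matches in the 250 bases before the annotated start of 21 histone genes that have at least 1, with distance in bases on the horizontal axis. The octamer is upstream of all 5 starred genes, which are those of the genotype table other than H1.3, and the hexamer mostly of H2B genes.

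Of the histone genes with a log2 fold change, 6 had the octamer, with values from -0.68 to -0.13 and a median of -0.56, and 9 did not, with values from -0.37 to 2.00 and a median of -0.01. Both ndx1-4 libraries were below both Col-0 libraries for 5 of the 6 with the octamer and for 3 of the 9 without. Over all 9143 genes with counts in 4 libraries the share was 24.6%. These 5 of the 6 are the lower genes of the genotype table, which had to differ to have values in all libraries. Neither this count nor the difference in medians is therefore a test of the octamer. The sixth, H1.1, was measured without the genotype table and was at -0.13 ± 0.10. The 4 tested genes with the hexamer had a median of -0.01. Outside the histones, 27 genes had the octamer and 9 of these were tested. They ranged from -0.40 to 0.47 with a median of 0.05, 3 below and 6 above 0, and 0 were in the genotype table.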

How the data were processed

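Genotype and replicate of each library come from the sample labels. Reads of 75 bases were quantified by the authors with Salmon against Araport11 genes, with correction for GC content, and compared with DESeq2. The count columns the authors deposited are estimated counts, rounded to whole numbers here. The FPKM values the authors deposited are per kilobase and scaled to library size. They differ between tables by 1 constant per library, so the tissue tables were put on the scale of the genotype table. Fold change and p columns hold the authors' own results and were not used, nor were 8 columns of seedling samples, which belong to another series, nor the transposable element table.

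The genotype test was the quasi-likelihood test of edgeR 4.0.16 (R 4.3.3) on genes present in both tissue tables whose mean count reached 10. Library scaling was recovered from count to FPKM ratios, genotype was the only term, and Benjamini-Hochberg adjusted p below 0.01 was called. Genes of the genotype table that are not in both tissue tables were fitted in an alternative. DESeq2 1.42.0 with its own library scaling, other scalings, other filters, a replicate term and leaving out each library were also run. With 2 pools per genotype, p-values rest on few libraries. The depth beyond the listed genes is not given by these tables, and counting intervals cover counting error only. Duplicate handling by the authors cannot be checked from counts. Upstream sequences come from TAIR10.1, whose coordinates were identical for 27 of 27 histone genes in the tables. Named genes were the highest member of each class, the 5 highest and 5 lowest log2 fold changes among genes whose mean count reached 50, HTR10, HTR12, H1.3, HTB8, HTA4, and members of the genotype table, and other members are given by value for completeness. The histone families, the other gene lists and the motifs were chosen with earlier results of these data known. Figures were drawn with matplotlib 3.10.9.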

Additional observations from a re-analysis of the deposited data

How the results depend on the processing

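The number of genes at an adjusted p below 0.01 depended strongly on the test: 7 by edgeR, 199 by DESeq2, 22 when the genes of the genotype table were added, 281 with the replicate number as a block, and 30 at an adjusted p below 0.05. It was 0 whichever library was left out, with 518 to 828 higher and 350 to 671 lower genes at an unadjusted p below 0.05. The histone genes called were 0 by edgeR and 1, H1.3 in each case, by DESeq2, with the replicate block and at 0.05. With the genes of the genotype table and the block, 501 of 8163 genes and 5 of 15 histone genes (HTR2, HTA10, HTA13, HTA6 and H1.3) were called. With those genes and scaling to total counts, 36 of 8163 genes and 1 of 15 histone genes, H1.3, were called. The 2 genotypes share only replicate numbers. Differences between replicates 1 and 2 correlated between genotypes across 7057 genes (Pearson r = 0.455, across genes, which are not independent replicates). Adding the genes of the genotype table raised the histone genes at an unadjusted p below 0.05 from 3 to 8 and those with a negative log2 fold change from 6 to 11, as 5 more genes were fitted. The median log2 fold change of the 10 histone genes was -0.055 and ranged from -0.098 to 0.0244 when 1 library was left out, positive without Col-0 replicate 1. With 1 library left out, signs turned for HTR10 (-0.43 to 0.46, negative without Col-0 replicate 2, -0.04, or ndx1-4 replicate 1), HTA9 (-0.023 to 0.17, negative without Col-0 replicate 2) and H1.2 (-0.092 to 0.080, positive without Col-0 replicate 1 or, at 0.014, without ndx1-4 replicate 1), whose differences were small against their errors, and the cause was not tested. Of 175 alternative values of single genes, 154 kept their direction and side of the threshold, 16 passed it and 5 turned in sign. Scaling to total counts moved genes at an unadjusted p below 0.05 from 845 higher and 694 lower to 648 higher and 871 lower, and TMM scaling to 764 and 796, while no histone gene turned in sign under either.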
